A study of Mus musculus with 8 samples.

Results

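Serotonin receptor genes were followed in the medial prefrontal cortex of mice 1 h after contextual fear conditioning. The genes are Htr1a, Htr1b, Htr1d, Htr1f, Htr2a, Htr2c, Htr3a, Htr4, Htr5a and Htr7, which make up 10 of the 14 serotonin receptor rows and 10 of the 22609 rows of the deposited gene table. The family was chosen by the p of Htr4 in the comparison of conditioned with control mice, where 8 of 14704 tested genes had a smaller one. The differences between the groups are therefore given below as a description of these samples, without a test and without reading anything from them. Levels of the receptors relative to each other were not used in that choice, and these were tested.

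The conditioned group held 4 mice. After 3 min of exploring the chamber each was given a pair of shocks to the feet, 2 in all, at 0.8 mA for 2 s with a pause of 30 s, and was taken out 15 s after the last. The context control group held 4 mice that were placed in the same chamber and received no shock. All 8 mice were of the strain B6.SJL and 3 months old, and no allele or agent besides the shock is named in the labels. Both hemispheres of the anterior cingulate subregion were dissected and total RNA was sequenced. The series calls the samples of a group biological replicates.

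Serotonin reaches the neocortex through axons of neurons whose cell bodies lie in the raphe nuclei of the brainstem, so the cortex holds the receptors but hardly any of the cells that make the transmitter. The receptors of the Htr1 and Htr5 classes couple to inhibitory G proteins that lower cyclic AMP and open potassium channels. Those of the Htr2 class act through Gq proteins and phospholipase C, and those encoded by Htr4, Htr6 and Htr7 act through Gs proteins that raise cyclic AMP. Htr3a encodes a subunit of a ligand-gated cation channel and marks a broad class of cortical interneurons.

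All values are scaled gene reads, which are read counts per gene divided by a factor per library and not corrected for gene length. Between 1992452 and 3565356 gene reads were recovered per library, and 1 read was worth between 0.831 and 1.61 scaled reads. Markers of the dissected tissue were abundant, with the glutamate transporter gene Slc17a7 at 2575 ± 725 in conditioned and 2341 ± 540 in control mice (SD, n = 4 each) and the GABA synthesis gene Gad1 at 1311 ± 65.0 and 1288 ± 85.5 in the same order of groups. Of 7 markers of serotonergic neurons, 2 were well above the floor. Slc18a2, the vesicular monoamine transporter shared by all monoamine neurons, averaged 46.6 ± 18.3 in conditioned and 53.4 ± 19.0 in control mice, and Gata2 15.4 ± 8.44 in conditioned and 15.7 ± 2.17 in control mice (SD, n = 4 each). Tph2, the neuronal serotonin synthesis enzyme, averaged 2.04 ± 2.64 in conditioned and 2.29 ± 2.11 in control mice, and Slc6a4, the serotonin transporter, 1.26 ± 1.94 in conditioned and 0.672 ± 1.34 in control mice (SD, n = 4 each). Lmx1b had 1 read, and the Fev and Gata3 rows had no read in any of the 8 libraries.

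No gene passed the threshold between the groups in limma (adjusted p under 0.05), which is 0 of 14704 genes tested or 0.0%, and at an unadjusted p under 0.05 there were 397. No receptor gene was therefore called in either direction. All 10 receptor genes passed the filter on low values, a mean of at least 1 scaled read over the 8 libraries. On the log2(value + 1) scale the conditioned mean lay above the control mean for 8 of them and below it for 2, Htr1d and Htr7. In DESeq2 on the recovered reads Htr1d lay above at 0.56 and Htr2a below at -0.015. Their median log2 difference was 0.36, against 0.0095 over all tested genes, of which 51.8% lay above 0. Every conditioned library exceeded every control library for 2 of the 10 genes, Htr4 and Htr5a. Such separation, in either direction, was found for 1.92% of all tested genes, for 0.979% with the conditioned group higher and for 0.939% with it lower. Nothing is read from the 2 of 10, since the same comparison chose the family.

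**Figure D1:**
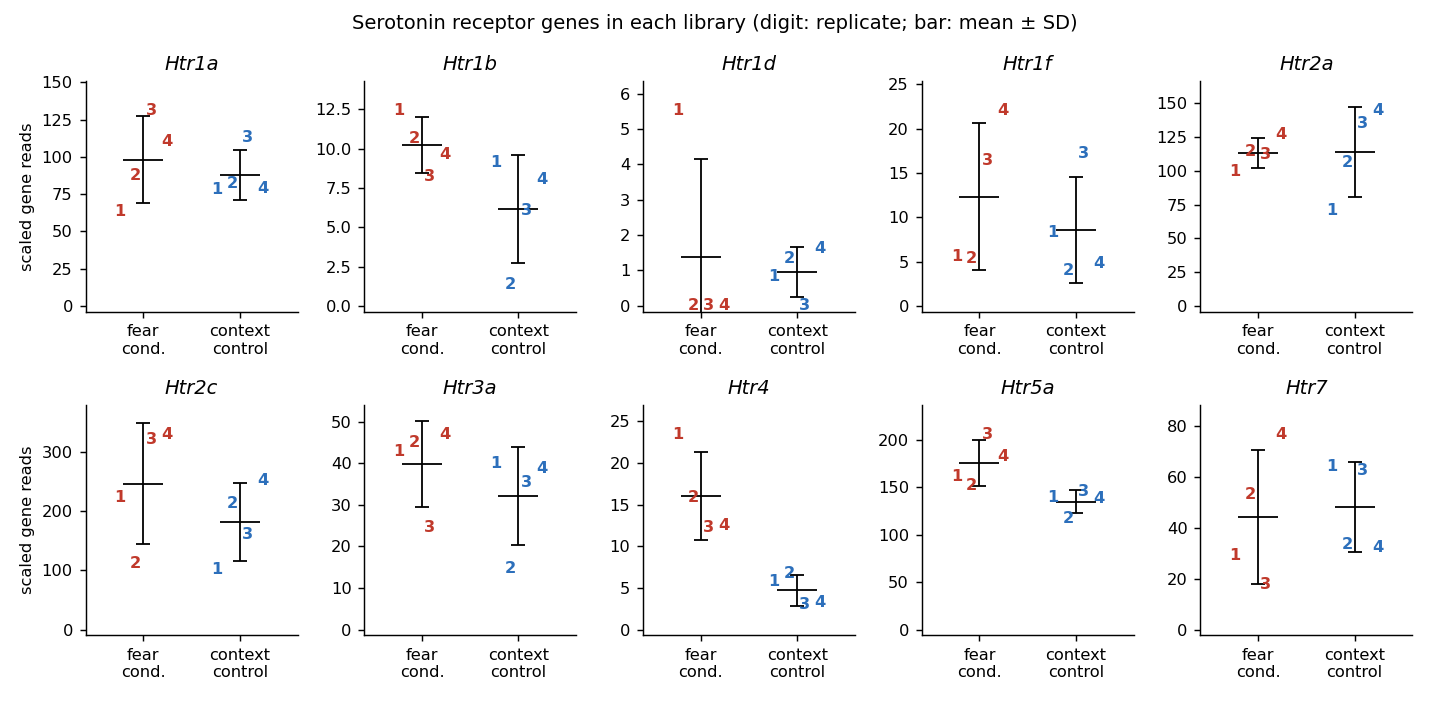
Scaled gene reads of the 10 receptor genes in each library, with conditioned mice left and context controls right of each panel. Each digit is the replicate number of a library and the bars show the mean ± SD of 4 libraries. The groups are apart for Htr4, at 12.3 to 23.5 against 3.03 to 6.72, and for Htr5a, at 153 to 206 against 117 to 145, and they overlap in the other 8 panels.

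Among the Gs-coupled receptors, Htr4, whose product raises cyclic AMP in neurons, was 23.5, 15.9, 12.3 and 12.5 scaled reads in conditioned replicates 1 to 4, against 5.81, 6.72, 3.03 and 3.22 in context control replicates 1 to 4. Every conditioned library was above every control library, and conditioned replicate 1 was the highest. The means were 16.04 ± 5.23 in conditioned and 4.69 ± 1.85 in control mice (SD, n = 4 each), a 3.42-fold ratio of the means and a log2 difference of 1.59 ± 0.43 (SE). These values rest on few reads. The conditioned libraries held 17, 12, 9 and 13 reads of Htr4, and the control libraries 7, 5, 3 and 2. The variance between replicates was 1.19 times what read counting alone would give, a value that the choice of Htr4 by its p also bears on. With a pseudocount of 5 in place of 1 the log2 difference was 1.11, and it lay between 1.40 and 1.76 when any of the 8 libraries was left out.

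Htr7, the other Gs-coupled receptor among the 10 genes, was 29.0, 53.1, 17.8 and 76.8 in conditioned replicates 1 to 4, against 63.9, 33.6, 62.5 and 32.2 in control replicates 1 to 4. The groups overlapped throughout, since conditioned replicates held both the lowest and the highest value. Its means were 44.1 ± 26.3 in conditioned and 48.1 ± 17.5 in control mice (SD, n = 4 each), with a log2 difference of -0.25 ± 0.43 (SE) that was 0.10 without conditioned replicate 3. The 3 highest Htr7 values came from the 3 libraries with the most gene reads, namely conditioned replicate 4 with 3338920, control replicate 1 with 3565356 and control replicate 3 with 3069259 gene reads. Since the values are already scaled for library size, this is a feature of the libraries beside the Htr7 values, and its part in them was not tested. Another such feature was the summed level of 9 upper-layer neuron markers, at 2863, 2824 and 2811 in these libraries in the same order. It was lowest in conditioned replicate 3, at 1880, where Htr7 was lowest. Control replicate 4 did not follow, with a sum of 2818 beside an Htr7 of 32.2. The pattern was not particular to these markers, since 7 endothelial markers summed to 853, 921 and 1076 in the same 3 libraries. The endothelial sum was also lowest in conditioned replicate 3, at 608, and it was 898 in control replicate 4. The part of these cell types was not tested either. Htr6, a Gs-coupled receptor outside the 10 genes, had 9 reads in the conditioned and 9 in the control libraries together.

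The Gq-coupled receptors among the 10 genes were both well measured, with 596 or more reads of Htr2c and 372 or more of Htr2a in each group. Htr2c, whose transcript is edited in neurons and whose product regulates excitability and feeding, was 222, 111, 321 and 330.0 in conditioned replicates 1 to 4, against 101, 214, 160.3 and 251 in control replicates 1 to 4. Conditioned replicates 3 and 4 exceeded all controls, while conditioned replicate 2 was below 3 of the 4 controls. The means were 246 ± 102 in conditioned and 182 ± 65.2 in control mice (SD, n = 4 each), a log2 difference of 0.40 ± 0.35 (SE) that lay between 0.14 and 0.74 when any library was left out.

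Htr2a, whose product is the cortical receptor through which serotonergic hallucinogens act, was 99.4, 114, 112 and 127 in conditioned replicates 1 to 4, against 70.6, 106, 135 and 145 in control replicates 1 to 4. The conditioned libraries lay inside the range of the controls. Its means were 113 ± 11.1 in conditioned and 114 ± 33.4 in control mice (SD, n = 4 each), and the log2 difference was 0.03 ± 0.24 (SE). Without control replicate 1, the lowest of the 8, the difference was -0.18. Htr2b, the remaining Gq-coupled receptor, had 5 reads in the conditioned and 1 read in the control libraries together.

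Among the receptors coupled to inhibitory G proteins, Htr5a was 162, 153, 206 and 182 in conditioned replicates 1 to 4, against 139.5, 117, 145 and 138 in control replicates 1 to 4. The lowest conditioned library was above the highest control. The means were 176 ± 23.9 in conditioned and 135 ± 12.5 in control mice (SD, n = 4 each), a 1.30-fold ratio and a log2 difference of 0.37 ± 0.17 (SE). The difference lay between 0.29 and 0.44 with any of the 8 libraries left out, and 431 tested genes had a smaller p. Htr5a was read 573 times in the conditioned and 485 times in the control libraries, so its values rest on many more reads than those of Htr4. Htr5b, its relative outside the 10 genes, had 21 reads in the conditioned and 22 in the control libraries, and none in conditioned replicate 3 and control replicates 2 and 4.

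Htr1a, which encodes the autoreceptor of raphe neurons and an inhibitory receptor of cortical pyramidal cells, was 63.5, 87.5, 131 and 110.3 in conditioned replicates 1 to 4, against 78.1, 81.9, 113 and 78.9 in control replicates 1 to 4. The groups overlapped, with conditioned libraries at both ends of the range. The means were 98.1 ± 29.2 in conditioned and 87.9 ± 16.7 in control mice (SD, n = 4 each). The log2 difference of 0.12 ± 0.25 (SE) was -0.03 without conditioned replicate 3.

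The remaining members of the Htr1 class had low values. Htr1b, which encodes a presynaptic receptor on axon terminals, was 12.4, 10.6, 8.20 and 9.59 in conditioned replicates 1 to 4, against 9.14, 1.34, 6.05 and 8.05 in control replicates 1 to 4. The highest control was above the lowest conditioned library, so the groups overlapped. The log2 difference was 0.83 ± 0.51 (SE), and it was 0.36 without control replicate 2, where Htr1b had 1 read. In GENCODE vM21 an antisense gene, D430036J16Rik, covers 18.0% of the exon bases of Htr1b, and whether the libraries keep strand is not given in the sources used here. Unless strand was kept, reads of these 2 genes cannot be told apart there.

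Htr1f, another Gi-coupled receptor and a target of drugs against migraine, was 5.52, 5.31, 16.4 and 22.1 in conditioned replicates 1 to 4, against 8.31, 4.03, 17.1 and 4.83 in control replicates 1 to 4. Libraries of both groups were found at low and at high values. The log2 difference was 0.43 ± 0.57 (SE), and it was 0.09 without conditioned replicate 4. Htr1d, a close relative of Htr1b, had 4 reads in conditioned replicate 1, none in the other conditioned libraries, and 1 read in each of control replicates 1, 2 and 4. A difference in Htr1d was not detectable at this depth.

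Htr3a, the channel subunit, was 42.8, 45.1, 24.6 and 47.0 in conditioned replicates 1 to 4, against 39.9, 14.8, 35.3 and 38.6 in control replicates 1 to 4. A low library stood in each group, conditioned replicate 3 and control replicate 2. The means were 39.9 ± 10.3 in conditioned and 32.1 ± 11.7 in control mice (SD, n = 4 each). The log2 difference of 0.36 ± 0.37 (SE) was 0.03 without control replicate 2. Htr3b, which encodes a partner subunit of the same channel, had no read in any library. A count of 0 allows up to 3 reads, or between 2.49 and 4.83 scaled reads by library, and covers counting error only.

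**Figure D2:**
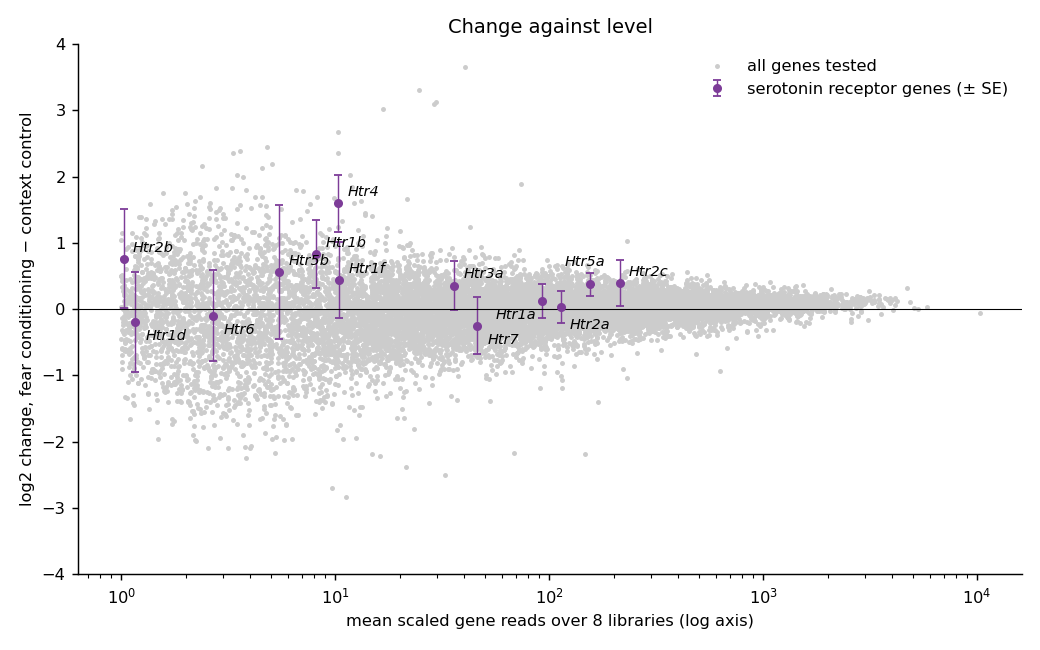
Difference of the group means in log2(value + 1), conditioned minus control, against the mean scaled reads over 8 libraries on a log axis. Grey points are the 14704 tested genes, and purple points are the 13 tested serotonin receptor genes with the standard error of the limma fit. Htr4 stands at 1.59 with a mean of 10.4 scaled reads, and the abundant Htr5a and Htr2c stand at 0.37 and 0.40.

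Levels of the receptors were compared per kb of exon, with exon lengths from GENCODE vM21. On this scale Htr5a was at 28.9 ± 5.21 scaled reads per kb over the 8 libraries (SD), Htr2c at 22.9 ± 9.28, Htr1a at 20.8 ± 5.06, Htr2a at 20.3 ± 4.11 and Htr3a at 17.3 ± 5.30. Htr7 followed at 13.6 ± 6.11 scaled reads per kb. Htr1f was at 4.05 ± 2.72, Htr4 at 2.11 ± 1.44, Htr1b at 1.73 ± 0.707 and Htr1d at 0.363 ± 0.588 scaled reads per kb. By group means the place of Htr4 differed. It was above Htr1b in conditioned mice, at 3.27 against 2.16 scaled reads per kb, and below it in control mice, at 0.956 against 1.30. In control replicate 2 Htr4 was above Htr1b, at 1.37 against 0.284. The change of place rests on the comparison of groups that chose the family, so nothing is read from it. The receptors thus covered a wide range of levels, with an upper set from Htr5a to Htr7 and a lower set from Htr1f to Htr1d.

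The order was tested between the 9 pairs of neighbours by an exact two-sided sign-flip permutation of the difference in log2 level within each of the 8 libraries. That order was taken from the means of these same 8 libraries, so the direction of each mean difference was set beforehand. The p-values do not allow for this. The smallest p this test can give with 8 libraries is 0.00781, so a lone pair could not go below an adjusted p of 0.0703, and a pair could pass only together with others. None of the 9 pairs passed after Benjamini-Hochberg adjustment, which does not show that neighbours are alike. The clearest steps were from Htr7 to Htr1f, with a mean log2 difference of 1.73 ± 0.95 (SD, n = 8, exact permutation p = 0.0156, adjusted p = 0.105, Htr7 higher in 7 of 8 libraries), and from Htr1b to Htr1d, with 1.72 ± 1.25 (SD, n = 8, exact permutation p = 0.0234, adjusted p = 0.105, Htr1b higher in 7 of 8 libraries). Htr2c and Htr1a differed by 0.06 ± 0.61 and Htr1a and Htr2a by 0.03 ± 0.37 (SD, n = 8, exact permutation p = 0.781 and adjusted p = 0.781 for each). Across sets, each of Htr5a, Htr2c, Htr1a, Htr2a and Htr3a was above each of Htr1f, Htr4, Htr1b and Htr1d in 8 of 8 libraries. With Htr7 the upper set was not fully separate, since Htr7 fell below Htr1f in conditioned replicate 3, at 5.23 against 6.36 scaled reads per kb. Htr7 was left out for that reason. The sets were cut from the order in these same libraries, so their separation is a description and not a test.

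The highest receptor of a library was Htr5a in 5 libraries and Htr2c in the other 3. Its place depends on the length given to Htr2c, whose union of exons spans 9.33 kb while its longest transcript has 4.88 kb. With the longest transcript Htr2c came out above Htr5a, and the log2 difference of Htr5a over Htr2c was -0.50 (adjusted p = 0.141). The 5 upper receptors made up 80.7 ± 4.53% of the summed level per kb of all 14 receptor genes in conditioned and 81.0 ± 7.53% in control mice (SD, n = 4 each). Htr4 made up 2.29 ± 1.03% in conditioned and 0.813 ± 0.42% in control mice. That difference repeats the comparison by which the family was chosen, and nothing is read from it.

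**Figure D3:**
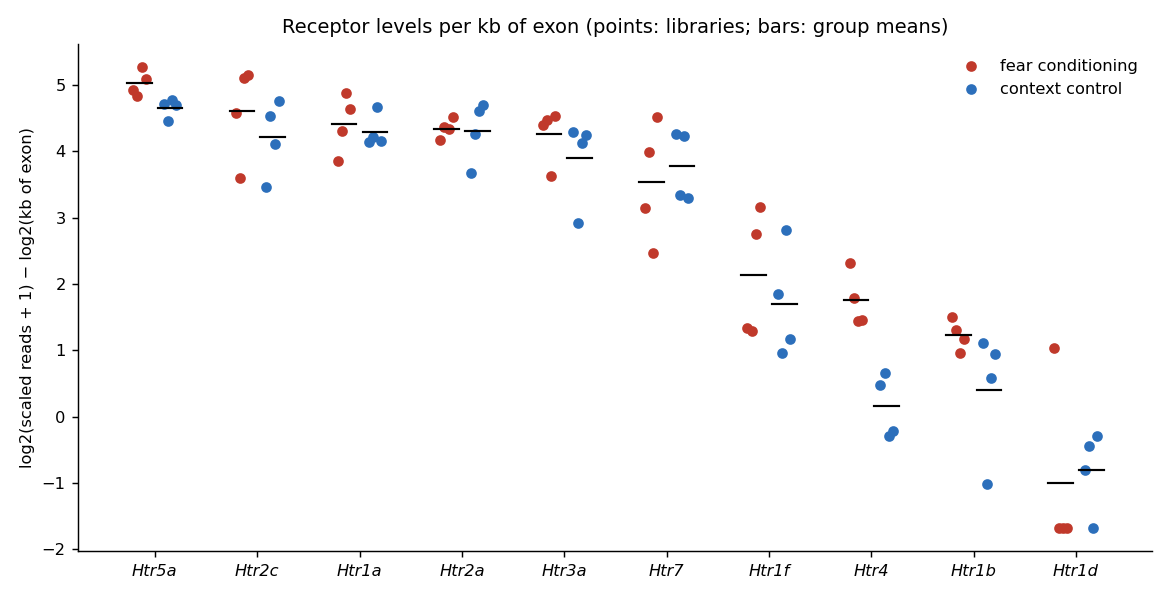
Level of each receptor gene in log2(scaled reads + 1) minus log2(kb of exon), ordered by its mean over the 8 libraries. Points are libraries, conditioned left of control within each gene, and black bars are group means. The 5 genes at the left lie above Htr1f, Htr4, Htr1b and Htr1d in each library, while neighbours in the order overlap.

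The spread between replicates differed widely between receptors. It was measured as the variance within the groups divided by the variance that read counting alone would give, where 1 means counting noise only. Htr2c had the largest ratio of the 10 genes, at 27.9, where the median was 6.30 and the 90th percentile 21.1 over the 2229 genes with a mean of 150 to 300 scaled reads. Htr5a, in the same range of levels, had a ratio of 1.90, below the lower quartile of 3.33 of those genes. Replicates thus agreed more closely for Htr5a than for Htr2c, although Htr2c was read more often.

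Htr7 also varied more than most genes of its level, with a ratio of 8.82 against a median of 3.08 and a 90th percentile of 9.14 over the 2119 genes with means of 20 to 50. Htr3a, at 2.76, was near that median. Htr1a at 4.94 and Htr2a at 4.44 were near the median of 4.16 of the 3509 genes with means of 50 to 150. Among low genes, with means of 5 to 20 and a median ratio of 2.14, Htr1f stood at 4.08, Htr4 at 1.19 and Htr1b at 0.745. The ratio of Htr4 is a description only, since a small p, by which it was picked, goes with a small variance within groups.

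**Figure D4:**
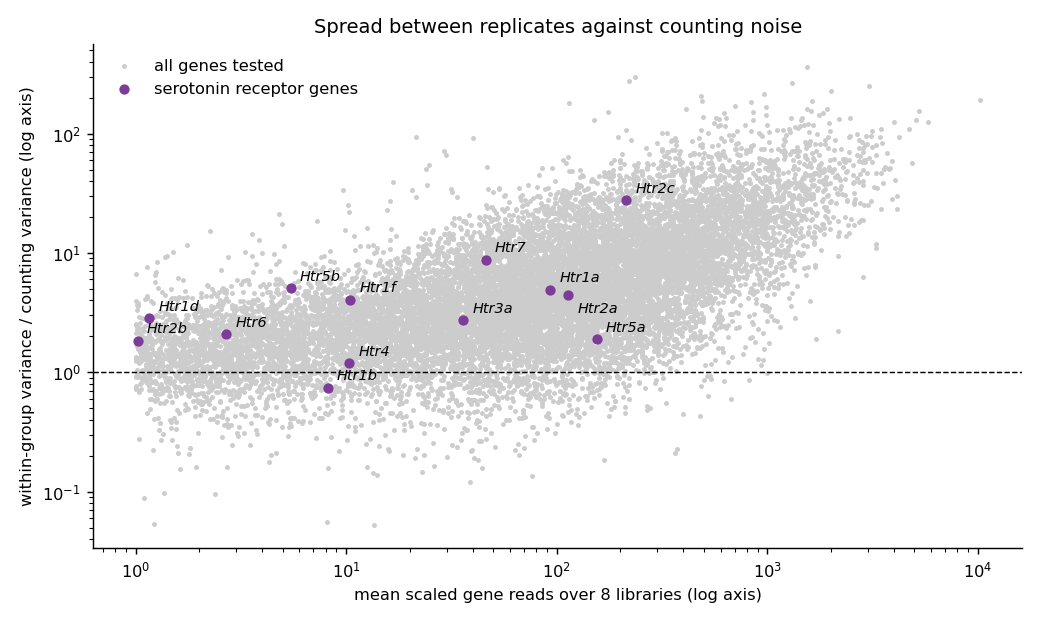
Variance within groups divided by the variance from read counting, against mean scaled reads, both on log axes. Grey points are tested genes with a ratio above 0, purple points are the receptor genes, and the dashed line at 1 marks counting noise. Htr2c at 27.9 and Htr7 at 8.82 lie high for their levels, and Htr5a at 1.90 lies low.

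The most variable receptors were set beside marker genes of the cells known to carry them. In bulk tissue, fewer cells of a type and less RNA per cell cannot be told apart. Deep-layer excitatory neurons, in which Htr2c is expressed, were represented by 12 marker genes whose summed level was 3146, 2462, 4150 and 3427 scaled reads in conditioned replicates 1 to 4, against 2283, 3131, 2409 and 2477 in control replicates 1 to 4. The 2 libraries with the highest Htr2c, conditioned replicates 3 and 4, also had the highest deep-layer sums, and control replicate 1 was lowest in both. Control replicate 4 did not follow, as its Htr2c was next in order at 251 while its sum of 2477 was close to the 2409 of control replicate 3, where Htr2c was 160.3. All 12 of these markers had a higher conditioned mean on the log2 scale, with a median difference of 0.41, while none was called, and their groups overlapped. Tbr1, a transcription factor of deep-layer neurons, was at 880 ± 210 in conditioned and 716 ± 44.0 in control mice (SD, n = 4 each). The part of these cells in the Htr2c values was not tested.

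Choroid plexus epithelium expresses Htr2c at a very high level, so its markers were examined as well. Of 10 markers, Kl was at 20.7 ± 7.21 in conditioned and 28.7 ± 9.41 in control mice (SD, n = 4 each). Ttr, the transthyretin gene that dominates this epithelium, was 5.52, 33.2, 2.73 and 3.84 in conditioned replicates 1 to 4, against 2.49, 12.1, 22.2 and 6.44 in control replicates 1 to 4. Sostdc1, another marker of the list, was highest of all 8 libraries in conditioned replicate 4, at 22.1, where Htr2c was also highest. In that library Ttr was 3.84, and Kl, at 29.7, was below its 30.3 and 40.2 in control replicates 3 and 4. All 5 tested markers of this list had a lower conditioned mean on the log2(value + 1) scale. Their median log2 difference was -0.74, and none was called. The summed list was 22.1, 58.4, 31.4 and 62.4 in conditioned replicates 1 to 4, against 29.1, 56.4, 86.7 and 67.6 in control replicates 1 to 4. Conditioned replicate 4 thus had the highest sum of its group, conditioned replicate 3 had a low one beside its high Htr2c, and the part of this epithelium in the Htr2c values was not tested.

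Interneurons of the class marked by Htr3a were represented by 10 genes, among them Reln, Cck and Lamp5, the last listed as 6330527O06Rik. Their sum was 2234, 2673, 1647 and 2184 in conditioned replicates 1 to 4, against 2523, 2236, 2406 and 2517 in control replicates 1 to 4. Conditioned replicate 3, low in Htr3a, had the lowest sum, and control replicate 2, the lowest in Htr3a, had the lowest sum of its group. Other libraries did not follow. Conditioned replicate 4, highest in Htr3a at 47.0, had a sum of 2184, below the 2236 of control replicate 2. Conditioned replicate 1, with an Htr3a of 42.8, had a sum of 2234. Of the 10 markers 3 had a higher and 7 a lower conditioned mean on the log2 scale. Their median log2 difference was -0.11, opposite in sign to that of Htr3a. The part of these interneurons in the Htr3a values was not tested. Striatal neurons carry Htr4 at a high level, and the sum of 10 striatal markers was 836 to 1033 in conditioned and 712 to 1190 in control mice. The ranges overlapped, and the highest sum belonged to control replicate 2, where Htr4 was 6.72, its highest control value. Control sums of replicates 1 to 4, at 866, 1190, 712 and 827, ranked as their Htr4. Conditioned sums were 840, 836, 1033 and 907, highest in replicate 3, where Htr4 was lowest of its group. Of 9 tested markers 5 were higher and 4 lower in conditioned mice on the log2 scale. Of these 1 separated the groups, lower in conditioned mice, as did 0.939% of all tested genes. The part of these cells in the Htr4 values was not tested.

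**Figure D5:**
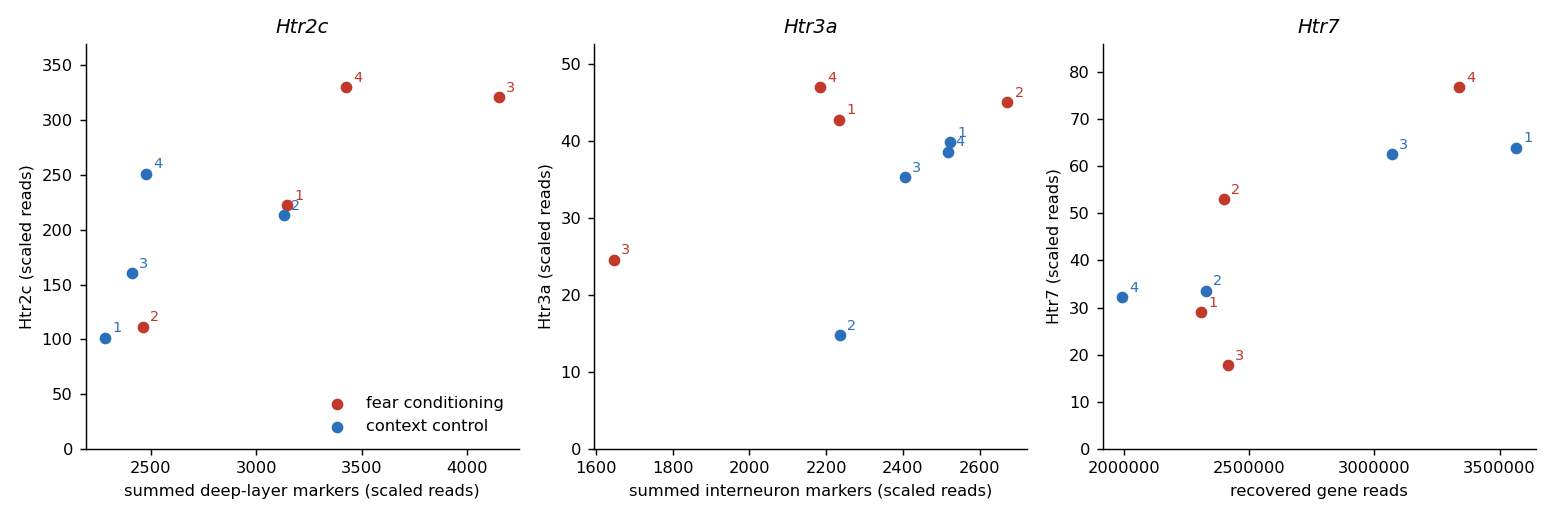
Htr2c beside the summed deep-layer markers, Htr3a beside the summed interneuron markers, and Htr7 beside the recovered gene reads of the library, for the 4 conditioned and 4 control libraries (digits are replicate numbers). Conditioned replicates 3 and 4 are highest in Htr2c and in deep-layer markers, and the 3 deepest libraries are highest in Htr7.

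Other marker lists differed in the balance of their members without a call. All 9 astrocyte, 8 oligodendrocyte, 8 microglial and 7 endothelial markers tested had a lower conditioned mean on the log2(value + 1) scale, with median log2 differences of -0.33, -0.49, -0.30 and -0.27. Their summed levels overlapped between the groups in each case, with astrocyte sums of 14397 to 16416 in conditioned and 14241 to 19990 in control mice. The overlap was narrow for microglial sums, at 1085 to 1385 against 1375 to 1506, and for endothelial sums, at 608 to 853 against 811 to 1076. Of the 9 astrocyte markers 1 separated the groups, Gja1, at 909 to 1067 in conditioned and 1085 to 1433 in control mice. Separation with the conditioned group lower was found for 0.939% of all tested genes. On the same scale, upper-layer neuron markers had 3 of 9 higher and 6 lower, with a median of -0.11, and markers of parvalbumin and somatostatin interneurons 8 of 9 higher, with a median of 0.09. The part of cell composition in the receptor values was not tested.

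The genes around the receptors were described from lists of synthesis and transport, of binding proteins and of downstream signalling, and 0 of their members were called. Of 12 tested genes of serotonin synthesis, transport and breakdown, 4 had a higher and 8 a lower conditioned mean on the log2(value + 1) scale, with a median log2 difference of -0.15. Maoa, whose enzyme breaks serotonin down, was at 241 ± 81.4 in conditioned and 234 ± 45.7 in control mice (SD, n = 4 each), and Maob at 200.04 ± 59.4 in conditioned and 199 ± 59.6 in control mice. Gch1, the first enzyme of the synthesis of the hydroxylase cofactor tetrahydrobiopterin, was at 5.63 ± 3.04 in conditioned and 12.9 ± 7.99 in control mice. No member of this list separated the groups.

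Proteins that bind serotonin receptors had 6 of 11 genes higher and 5 lower on the log2(value + 1) scale, with a median log2 difference of 0.04. S100a10, whose product p11 brings Htr1b and Htr4 receptors to the cell surface, was at 108 ± 27.8 in conditioned and 115 ± 11.8 in control mice (SD, n = 4 each). Mpdz, which encodes a scaffold of many PDZ domains that binds the Htr2c receptor, was 431, 362, 374 and 376 in conditioned replicates 1 to 4, against 342, 301, 323 and 339.6 in control replicates 1 to 4. The groups did not overlap for 1 of the 11 genes, Mpdz, beside the 1.92% of all tested genes given above. The log2 difference of Mpdz was 0.24 ± 0.14 (SE). Snx27, a sorting protein of recycling endosomes that binds the Htr4 receptor, was at 876 ± 192 in conditioned and 871 ± 91.7 in control mice.

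Of 24 G protein, cyclase, phospholipase and potassium channel genes through which the receptors act, 17 had a higher and 7 a lower conditioned mean on the same log2 scale, with a median log2 difference of 0.06. Gnas, the Gs alpha subunit used by Htr4 and Htr7, was at 1569 ± 416 in conditioned and 1471 ± 332 in control mice (SD, n = 4 each). Adcy1, a calcium-stimulated adenylyl cyclase, was at 4219 ± 363 in conditioned and 4059 ± 327 in control mice. The groups did not overlap for 2 of the 24 genes, beside the 1.92% of all tested genes given above. Adcy9, another adenylyl cyclase, was 178, 191, 165 and 175 in conditioned replicates 1 to 4, against 148, 129, 124 and 88.5 in control replicates 1 to 4, a log2 difference of 0.55 ± 0.19 (SE). Kcnj3, a subunit of the potassium channel opened by Gi-coupled receptors, was 215, 163, 174 and 199.6 in conditioned replicates 1 to 4, against 146, 152, 161 and 135 in control replicates 1 to 4, a log2 difference of 0.33 ± 0.17 (SE).

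The genes whose pattern over the 8 libraries was most like that of Htr4 were found by the root mean square difference of log2(value + 1), after each gene was centred on its own mean, among 10858 genes with a mean of at least 20 scaled reads. The nearest 5 were Ksr1, Lmln, Dpysl3, Ccdc28a and Susd2, at differences of 0.45, 0.49, 0.50, 0.50 and 0.52 on the log2 scale. A flat profile would lie at 0.89, and 3813 of the 10858 genes were nearer to Htr4 than that. The median over all compared genes was 0.93. Ksr1, which encodes a scaffold of the MAP kinase cascade, was at 95.1 ± 27.2 in conditioned and 56.6 ± 18.1 in control mice (SD, n = 4 each) and, like Htr4, it was highest in conditioned replicate 1. Lmln, which encodes a metallopeptidase, was at 43.6 ± 4.88 in conditioned and 24.2 ± 3.49 in control mice. Likeness over 8 libraries describes these values only, and it includes the difference between groups by which Htr4 was picked.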

How the data were processed

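Total RNA of 8 cortex samples was extracted with a column kit and made into Illumina libraries as the manufacturer instructs, per the labels' protocols. TopHat and HTSeq, without versions, and the human build hg19 are named in the submitters' processing notes, although the samples and symbols are mouse, so no coordinates are printed. The deposited file is named FPKM, but its signal is gene read counts divided by a factor per sample, since 100% of values above 0 in each column were whole multiples of its step within 0.01 of a read. The origin of that factor, the annotation and whether strand was kept: not given in the sources used here. Dividing by the step recovered the reads.

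Groups and replicate numbers came from the sample titles. The comparison was fitted in limma 3.58.1 under R 4.3.3 on log2(value + 1), the scale of all log2 differences, for genes whose mean value reached 1 (lmFit, eBayes with a variance trend, two-sided, Benjamini-Hochberg over 14704 genes). The log2 scale understates differences of low genes. edgeR 4.0.16 and DESeq2 1.42.0 on recovered reads, other filters, pseudocounts and scalings, a replicate block and leaving out each library were alternatives. The fits were tested on simulated data. Exon lengths were the union of GENCODE vM21 exons per symbol. Marker and pathway genes were looked up under current or older symbols, which found 154 of 155. The receptor genes, lists and rules were chosen with earlier results of these data known. Named genes were the receptors, the listed pathway genes, up to 3 most abundant members per marker list and the 5 genes most like Htr4. Slc6a4, Fev, Gata3 and Lmx1b were named from the marker lists after their values were seen.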

Additional observations from a re-analysis of the deposited data

Results flagged for a closer look

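Of 28 sets of 4 libraries, 14 receptor genes in 2 groups, 3 held a library far from the other 3 of its group by Dixon's 95% criterion for the gap over the range. Chance flags about 1 in 20 sets, a rate that does not hold for sets of a few reads: where 3 libraries are at 0, any read in the fourth is flagged, as for Htr1d and Htr2b here, and the sets of Htr3b, all at 0, could not be. Htr1a in context control replicate 3 read 113 scaled reads, with the other controls between 78.1 and 81.9. Htr1d in fear conditioning replicate 1 read 5.52 scaled reads, or 4 reads, with the other 3 conditioned libraries at 0. Htr2b in context control replicate 2 read 1.34 scaled reads, a lone read, with the other 3 controls at 0.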

How the results depend on the processing

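The count of genes past the threshold was 0 in limma with no filter, a filter of 10, pseudocounts of 0.1 and 5, TMM scaling and quantile normalization, and also in edgeR (385 at an unadjusted p under 0.05) and DESeq2 (340). It was 0 to 1 with each library left out, the 1 being Uevld, lower without fear conditioning replicate 4. With the replicate number as a block it was 0 as well, with 594 at an unadjusted p under 0.05. Each number occurs once in each group, so the block cannot move a log2 difference. The numbers were not taken as pairs. Deviations of replicates with the same number correlated at 0.228, 0.249, 0.069 and 0.113 for numbers 1 to 4. For replicates with different numbers the correlations lay between -0.385 and 0.478.

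Receptor differences moved by less than the spread between replicates, except Htr1d at a pseudocount of 0.1 (-1.34) and Htr4 at a pseudocount of 5 (1.11). Htr4 was 1.71 in edgeR and 1.74 in DESeq2. For Htr1d the sign also changed, to 0.48 in edgeR and 0.56 in DESeq2, and the cause was not tested. Among levels, Htr5a over Htr2c was -0.50 with the longest transcript. With a library left out, Htr2c over Htr1a ranged from -0.042 to 0.165, Htr1a over Htr2a from -0.044 to 0.112 and Htr4 over Htr1b from -0.083 to 0.32. With 7 libraries a lone pair of neighbours could not go below an adjusted p of 0.141, so these say nothing on the stability of a call. Depth limits Htr1d, Htr2b and Htr6, each with fewer than 20 reads in all.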
